A study of Mus musculus with 4 samples.

Results

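Cytosolic chaperones and heat shock genes were examined as a set of 44 genes in resting CD4 T cells from mouse spleen. They were chosen by name as the HSP70, HSP90, DNAJ, BAG and TRiC families with their partners, the mitochondrial chaperonin pair Hspd1 and Hspe1, the small heat shock protein gene Hspb1 and the heat shock factors Hsf1 and Hsf2. A probe set of the array named 41 of the 44 alone, out of 19937 genes measured in this way. Hspa1b, Hsp90ab1 and Hsf1 had no probe set of their own and were not analysed here as single genes. Where a gene had several probe sets, the one with the highest mean represented it.

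The cells came from IfitmF-/- mice, which lack the whole family of interferon-inducible transmembrane genes, and from WT mice as controls. Each genotype had 2 arrays of total RNA (Affymetrix Mouse Gene 1.0 ST), each from separately purified cells pooled from a pair of mice. The animals were 6 to 8 weeks old and, per the study, the knockout was on a C57BL/6 background. Per the labels, spleen cells went through an ammonium chloride step for red cell lysis and then a negative selection, in which antibodies take out the other cell types and the CD4 T cells remain. Levels are log2 RMA intensities, changes are IfitmF-/- minus WT on that scale, and "called" means an adjusted p under 0.05 in a limma fit over all 34760 probe sets. In such bulk samples, fewer cells of a type and less RNA per cell cannot be told apart.

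Chaperones hold unfolded proteins and help them to fold. HSP70 proteins bind exposed hydrophobic stretches in a cycle that J-domain (DNAJ) proteins start and nucleotide exchange factors such as HSP110 and BAG proteins end, HSP90 then matures kinases and steroid receptors, and the TRiC ring folds actin and tubulin. Heat shock factor 1 raises the inducible members of these families when unfolded proteins accumulate, while others, such as Hspa8 and the TRiC subunits, are made in all growing cells, and lymphocytes also raise several of them upon activation.

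Most chaperone genes that differed between the genotypes were lower in IfitmF-/- cells. Of the 41 measured members, 10 were called lower, namely Hspa1a, Hspa2, Hspa8, Hsph1, Hsp90aa1, Dnaja1, Dnajb1, Dnajb4, Bag3 and Hspd1. Among all genes 3.61% were called lower. Dnaja3 alone was called higher, where 4.96% of all genes were called higher, and 30 members were not called. The largest falls were in Hspa1a, which encodes stress-inducible HSP70 (3.72-fold lower), and in Bag3, which encodes an inducible HSP70 co-chaperone (2.86-fold lower). The median change over the members was -0.22, and over all genes it was -0.02.

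The direction was shared by many members that were not called. A change below 0 was measured for 35 members and above 0 for 6, and among all 19937 genes for 10698 and 9239. Both IfitmF-/- arrays lay below both WT arrays for 30 of the 41 members, as they did for 30.8% of all genes, and above both for 5 members, as they did for 27.9% of all genes. With 2 arrays per genotype, genotypes that do not overlap are thus common, and for a single gene below they carry little weight. In called members, a gap that is wide beside the replicate spread largely follows from their choice by adjusted p. An unadjusted p under 0.05 with a lower level was reached by 20 members, and by 11.5% of all genes. The mean level of the 41 members was 8.996 and 8.991 on the IfitmF-/- arrays and 9.333 and 9.307 on the WT arrays. The study's methods further asked for more than a 2-fold change and for 250 linear units or more between the brightest and the dimmest array. Among members called lower, Hspa1a was the only one to pass both, as did 0.853% of all genes. Bag3 passed the fold but spanned only 210 units.

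These calls rest on all 4 arrays together. With the replicate number added to the fit as a block, none of the 11 was called (adjusted p = 0.0624 to 0.112 in limma). The same held when any 1 array was left out, which leaves 1 array in a genotype. In these settings no other gene was called either, so the loss is not particular to the members. The changes themselves moved little, and the one that moved most with an array was that of Hspa1a, which was -1.55 without WT replicate 1 and -2.23 without WT replicate 2.

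**Figure D1:**
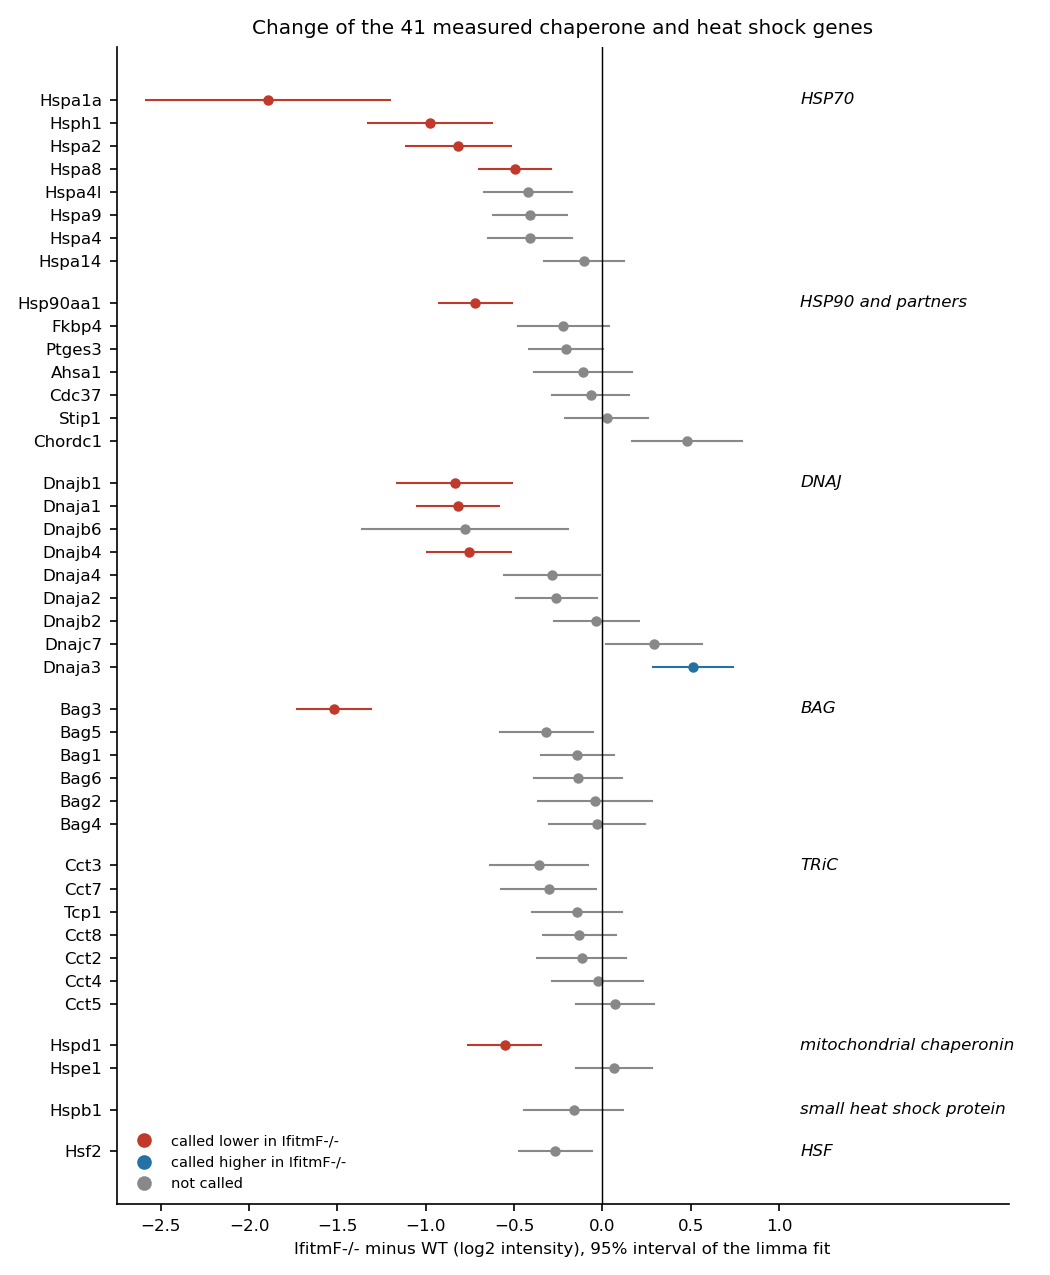
Change of each of the 41 measured members as IfitmF-/- minus WT in log2 intensity (horizontal axis), with the 95% interval of the limma fit as a line, ordered by size within each family. Red points mark the 10 members called lower, the blue point marks Dnaja3, called higher, and grey points mark the 30 not called. HSP70 genes all lie left of 0, as do 6 of the 7 TRiC subunits. The TRiC changes span -0.36 to 0.07, and Hspa14 of the HSP70 group, at -0.10, lies within that span.

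The HSP70 group showed the broadest fall. All 8 measured genes were lower on both IfitmF-/- arrays than on both WT arrays, as were 30.8% of all genes. Of the 8, 4 were called lower, as were 3.61% of all genes, and the median change was -0.46. Hspa1a encodes the form of HSP70 that is induced within minutes of heat or protein damage. It had levels of 8.17 and 7.91 on the IfitmF-/- arrays and of 10.27 and 9.60 on the WT arrays, a change of -1.89 (SE 0.26, adjusted p = 0.03). The groups were clearly apart, although the WT arrays differed more from each other than the IfitmF-/- arrays did. A further probe set is annotated to Hspa1a and Hspa1b together, the neighbouring copy that encodes a near-identical protein, and cannot be assigned to either of them. It was at 9.04 and 8.37 in IfitmF-/- cells and at 11.25 and 10.56 in WT cells, a change of -2.20 (adjusted p = 0.0371). On both of these probe sets replicate 1 was the brighter array of each genotype.

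Heat shock factor 1 binds the heat shock element, which consists of inverted repeats of the unit GAA. The RefSeq promoter table (build GRCm38.p6) held 37 of the 44 members and 27025 genes in all, and the 250 bases before each start were searched on both strands. The 2-unit forms GAANNTTC and TTCNNGAA read the same on both strands, and the 3-unit forms GAANNTTCNNGAA and TTCNNGAANNTTC are each other's reverse complement and contain the 2-unit forms. A 2-unit match stood before 14 of the 37 members and 14.55% of all genes, and a 3-unit match before 3 of the members and 0.51% of all genes. A match describes these letters and shows no binding. Of the 8 members called lower that the table held, 5 had a 2-unit match, namely Hspa1a, Hsph1, Dnaja1, Dnajb4 and Hspd1. Bag3, Dnajb1 and Hspa2 had none in this window. Among members that were not called, 8 of 27 had a match, so that the letters were not limited to genes called lower. Hspa1a and Hspa1b shared 247 of the 250 bases before their starts, and the stretch around their match was the same. The stretches of Hspa1a and Hsph1 are given here because these genes had the largest changes of the group, and that of Hspa1b because it shares a probe set with Hspa1a, with the 2-unit match in capitals.
Hspa1a, chr17:34972241-34972272, minus strand: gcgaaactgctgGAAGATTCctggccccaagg
Hspa1b, chr17:34959323-34959354, minus strand: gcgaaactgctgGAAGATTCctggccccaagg
Hsph1, chr5:149636350-149636381, minus strand: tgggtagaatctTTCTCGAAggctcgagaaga

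Hsph1 encodes HSP110, which drives nucleotide exchange on HSP70 and is itself heat inducible. Its levels were 8.54 and 8.60 in IfitmF-/- cells, against 9.70 and 9.39 in WT cells, a change of -0.98 (SE 0.13, adjusted p = 0.0296). All values of IfitmF-/- cells were below those of WT cells by more than the WT arrays differed. Hspa4 and Hspa4l, which encode the other members of the HSP110 family, changed by -0.41 and -0.42 without being called (adjusted p = 0.0699 and 0.0708).

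Hspa8 encodes the constitutive HSP70 and was among the brightest probe sets, with at least 99.57% of probe sets dimmer on each array. It was at 12.89 on both IfitmF-/- arrays and at 13.38 on both WT arrays, a change of -0.49 (SE 0.08, adjusted p = 0.0375). Replicates differed far less than the genotypes did. The other probe sets of Hspa8 alone changed by -0.37 and -0.43 and were not called (adjusted p = 0.0614 and 0.0631). Many processed copies of Hspa8 lie elsewhere in the genome, and probe sets named for it may also read these.

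Hspa2, known for its high level in male germ cells, was dim. Its levels were 5.94 and 6.17 in IfitmF-/- cells and 6.89 and 6.85 in WT cells, a change of -0.81 (SE 0.11, adjusted p = 0.0301). The IfitmF-/- values lay within the 4.36 to 6.47 that probe sets of the 5 deleted Ifitm genes gave on the same arrays, so the measured size of this fall may be too small. Hspa9, which encodes the mitochondrial HSP70, changed by -0.41 (adjusted p = 0.0544), and Hspa14, a ribosome-associated form, by -0.10 (adjusted p = 0.51).

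**Figure D2:**
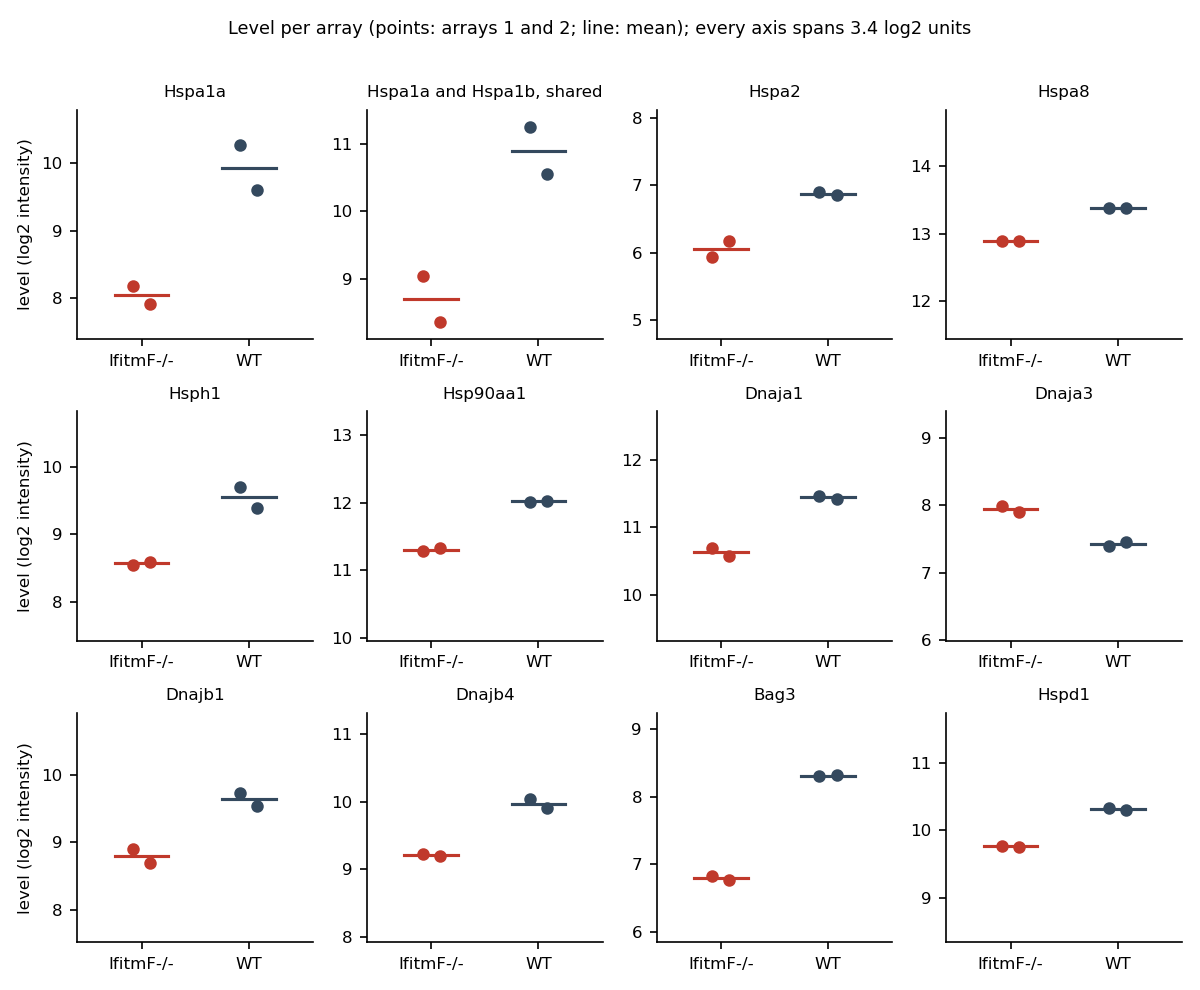
Level in log2 intensity (vertical axis, each panel spanning the same number of log2 units) of the 11 called members and of the probe set shared by Hspa1a and Hspa1b, in IfitmF-/- (red, left) and WT cells (dark, right). Each point is an array and each line the mean of 2 arrays. No panel shows overlapping genotypes, which for the called members largely follows from their choice by adjusted p. Dnaja3 alone is higher in IfitmF-/- cells.

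In the HSP90 group, the inducible chaperone itself was lower while its measured partners were not called. The group had 1 of 7 genes called lower and none called higher, where 3.61% and 4.96% of all genes were. Its median change was -0.11. The median was -0.19 without IfitmF-/- replicate 2, -0.175 without WT replicate 2 and -0.0669 after centring on array medians. Hsp90aa1 encodes the inducible cytosolic HSP90. It was at 11.28 and 11.33 in IfitmF-/- cells, against 12.02 and 12.03 in WT cells, a change of -0.72 (SE 0.08, adjusted p = 0.0211). The difference was many times the spread within either genotype. The other probe sets of Hsp90aa1 changed by -0.81 and -0.73, and both were called (adjusted p = 0.0189 and 0.0239). Hsp90ab1, the constitutive paralogue, was not analysed here, so no value can be set beside it.

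The 6 co-chaperones of HSP90 lay on both sides of 0. Fkbp4, an immunophilin that acts on steroid receptors, changed by -0.22 (adjusted p = 0.243), and Ptges3, which encodes p23 and stabilises the closed HSP90 dimer, by -0.21 (adjusted p = 0.192). A dimmer probe set of Ptges3 changed by -0.05 with overlapping genotypes. Ahsa1, the activator of the HSP90 ATPase, changed by -0.11 with overlapping genotypes, and Cdc37, which brings kinases to HSP90, by -0.07. Stip1, which links HSP70 to HSP90, changed by 0.02, with a 95% interval from -0.21 to 0.26. Chordc1, an HSP90 partner whose gene is also heat inducible, went the other way. It was at 9.64 on both IfitmF-/- arrays and at 9.29 and 9.03 on the WT arrays, a change of 0.48 that was not called (SE 0.12, adjusted p = 0.0855).

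The DNAJ group held changes in both directions, with 7 below 0 and 2 above 0. Of 9 measured J-domain genes, 3 were called lower, as were 3.61% of all genes. A single gene was called higher, as were 4.96% of all genes, and the median change was -0.29. Dnajb1 encodes the main inducible HSP40, which works with HSP70 on aggregated proteins. It was at 8.90 and 8.70 in IfitmF-/- cells and at 9.73 and 9.54 in WT cells, a change of -0.83 (SE 0.12, adjusted p = 0.0336). Dnajb4, a close relative of Dnajb1, was at 9.23 and 9.20 in IfitmF-/- cells, against 10.04 and 9.90 in WT cells, a change of -0.75 (SE 0.09, adjusted p = 0.0239). For both genes the 4 values fell into separate genotypes with a wide gap.

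Dnaja1 encodes a farnesylated partner of the constitutive HSP70. It was at 10.69 and 10.57 in IfitmF-/- cells and at 11.46 and 11.42 in WT cells, a change of -0.82 (SE 0.09, adjusted p = 0.0208). A dimmer probe set of Dnaja1 changed by -0.46 and was not called (adjusted p = 0.141 in limma). With the mean over its probe sets, Dnaja1 was still called (-0.64, adjusted p = 0.0178 in limma). Dnaja3, whose product is the mitochondrial J protein Tid1, was the only member called higher. It was at 7.99 and 7.90 in IfitmF-/- cells, against 7.40 and 7.46 in WT cells, a change of 0.51 (SE 0.08, adjusted p = 0.0413). Its mitochondrial partner Hspa9 had a change below 0, as given above.

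The remaining J-domain genes were not called on their own probe sets. Dnajb6, a strong suppressor of protein aggregation, was at 6.92 and 6.43 in IfitmF-/- cells and at 7.63 and 7.28 in WT cells, a change of -0.78 (SE 0.22, adjusted p = 0.114). Its replicates differed more than those of any other DNAJ gene measured here, yet the genotypes did not overlap. Dnaja2 and Dnaja4, relatives of Dnaja1, changed by -0.26 and -0.29 (adjusted p = 0.15 and 0.171), and Dnajc7, which binds HSP70 and HSP90 through tetratricopeptide repeats, by 0.29 (adjusted p = 0.165). Dnajb2 changed by -0.03 with overlapping genotypes.

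Heat shock element letters stood before 4 of the 9 DNAJ genes. Stretches are shown for the called genes with a match and for Dnajb6, the only DNAJ gene with a 3-unit match, in which the pair of 2-unit matches overlap. Capitals mark the 2-unit matches.
Dnaja1, chr4:40722332-40722363, plus strand: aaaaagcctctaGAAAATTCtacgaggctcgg
Dnajb4, chr3:152193846-152193871, minus strand: gttcgttcgctgTTCTAGAAagtaca
Dnajb6, chr5:29735840-29735876, plus strand: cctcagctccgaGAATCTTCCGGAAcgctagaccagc

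Bag3 was the only BAG gene called, and it was called lower, as were 3.61% of all genes. The 6 genes are grouped by the BAG domain, which in several members of the family releases nucleotide from HSP70, and their median change was -0.14. Bag3, the heat-inducible member, also carries HSP70 clients to autophagy. It was at 6.83 and 6.77 in IfitmF-/- cells and at 8.31 and 8.32 in WT cells, a change of -1.52 (SE 0.08, adjusted p = 0.0116). The replicates of each genotype nearly coincided, and Bag3 had the smallest p of all members.

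The other 5 BAG genes changed by -0.32 to -0.03 and none was called. Bag5, which carries several BAG domains, had the largest of these changes (-0.32, adjusted p = 0.14). Bag1, which joins HSP70 to the proteasome, changed by -0.14 and Bag6, which hands over tail-anchored membrane proteins, also by -0.14, each with genotypes that did not overlap. Bag4 and Bag2 changed by -0.03 and -0.04 with overlapping genotypes, and Bag2 was as dim as the deleted Ifitm genes on the IfitmF-/- arrays.

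None of the 7 TRiC genes measured was called by limma. An unadjusted limma p under 0.05 with a lower level was reached by 2 of them, Cct3 and Cct7, and by 11.5% of all genes. The median change of the 7 was -0.13, with changes from -0.36 to 0.07. Tcp1, the subunit for which the complex is named, was at 10.29 and 10.35 in IfitmF-/- cells and at 10.39 and 10.54 in WT cells, a change of -0.14 (SE 0.09, adjusted p = 0.412). The genotypes did not overlap, but the gap between them was smaller than the spread of the WT arrays. Cct3 had the smallest p of the group. It was at 9.44 and 9.61 in IfitmF-/- cells, against 9.83 and 9.94 in WT cells, a change of -0.36 (SE 0.10, adjusted p = 0.121). The 95% intervals of Tcp1, Cct2, Cct4, Cct5 and Cct8 included 0 and reached no lower than -0.40, so a fall in these genes as large as that of Hsph1 lay outside them.

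The mitochondrial chaperonin pair parted. Hspd1 encodes HSP60, the barrel in which imported proteins fold, and Hspe1 encodes HSP10, its lid, and the genes lie head to head on chromosome 1. Hspd1 was at 9.77 and 9.75 in IfitmF-/- cells and at 10.33 and 10.30 in WT cells, a change of -0.55 (SE 0.08, adjusted p = 0.0311), and its further probe set changed by -0.69 (adjusted p = 0.0299). Hspe1 was at 10.93 and 10.94 in IfitmF-/- cells, against 10.90 and 10.83 in WT cells, a change of 0.07 (SE 0.08, adjusted p = 0.653), and its further probe set changed by 0.13 (adjusted p = 0.431). Each gene thus had the same sign on both of its probe sets, and the 95% intervals of the representative ones, from -0.76 to -0.35 for Hspd1 and from -0.15 to 0.28 for Hspe1, did not meet. The difference between the genes was not tested. Processed copies of both genes exist elsewhere in the genome and may share probes with them.

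The stretch between the starts of Hspd1 and Hspe1 held the longest run of heat shock element letters among the members, and it is shown because both genes share it. It has 3 overlapping 2-unit matches, which make up 2 of the 3-unit form, in capitals, and is written on the strand of each gene.
Hspd1, chr1:55088047-55088088, minus strand: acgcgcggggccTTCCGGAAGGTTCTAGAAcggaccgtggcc
Hspe1, chr1:55088047-55088088, plus strand: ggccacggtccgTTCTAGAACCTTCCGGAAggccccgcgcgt

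Neither the small heat shock protein gene nor the measured heat shock factor was called. Hspb1, which encodes a small ATP-independent chaperone, was at 5.82 and 5.84 in IfitmF-/- cells and at 6.10 and 5.89 in WT cells, a change of -0.16 (SE 0.11, adjusted p = 0.402). Its levels were within the span of the deleted Ifitm genes on the IfitmF-/- arrays, so that no change can be read from them. The same holds for its other probe set, which changed by -0.57 (adjusted p = 0.0798). Hsf2, which encodes a factor that binds heat shock elements together with heat shock factor 1, was at 7.42 and 7.38 in IfitmF-/- cells, against 7.67 and 7.66 in WT cells, a change of -0.27 (SE 0.08, adjusted p = 0.122). The genotypes of Hsf2 did not overlap.

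**Figure D3:**
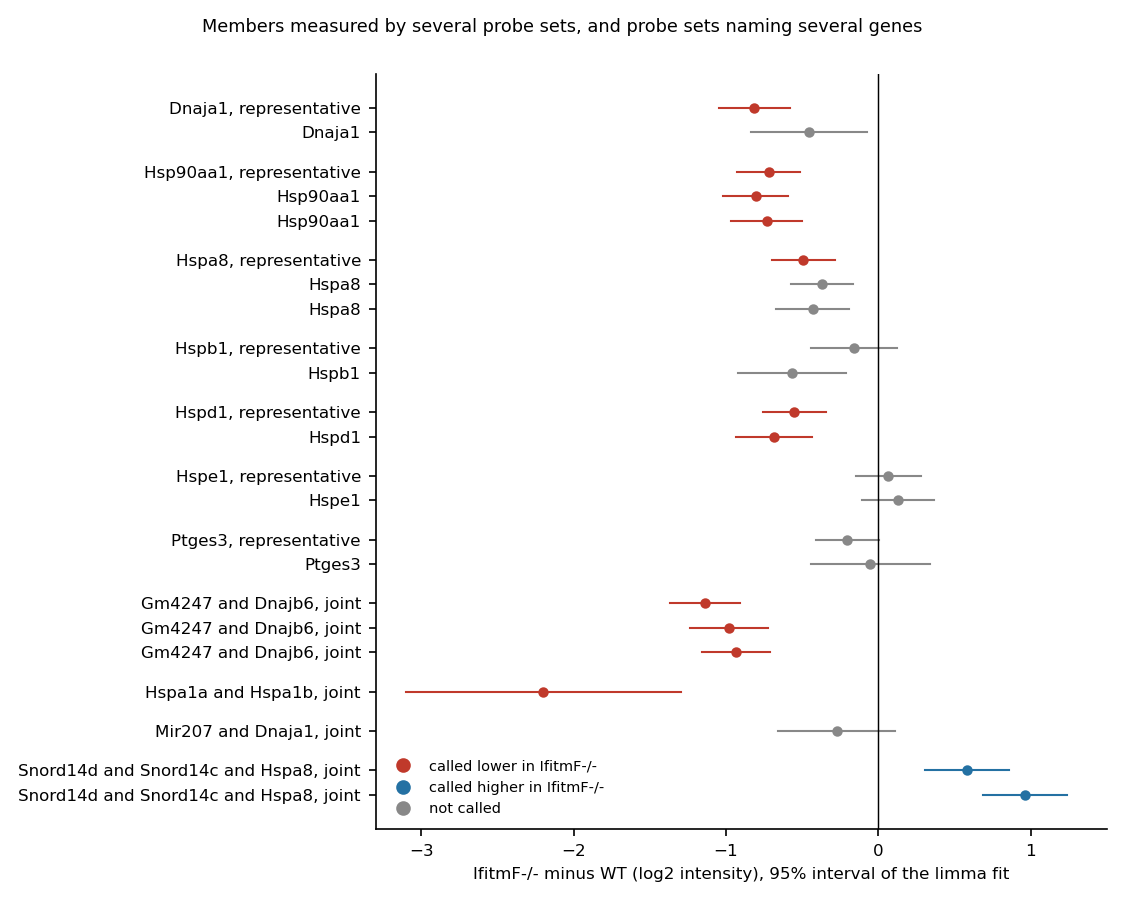
Change as IfitmF-/- minus WT in log2 intensity (horizontal axis) with the 95% interval of the limma fit, for each probe set of the 7 members that have several of their own (upper rows, the representative one named as such) and for the 7 probe sets annotated to a member together with other genes (lower rows, marked joint). Red marks a call as lower, blue as higher and grey no call. The probe sets of each of the 7 members lie on the same side of 0, while those that Hspa8 shares with small nucleolar RNA genes lie on the other side.

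Genes of the same pathways outside the set were called in both directions, in numbers to be read against the 3.61% of all genes called lower and the 4.96% called higher. Of 25 further cytosolic co-chaperone genes measured, 2 were called lower and 1 higher, with a median of 0.05. Unc45a, which assists myosin folding with HSP90, changed by -0.80 (adjusted p = 0.0239). The other was Sgtb, a partner of HSP70, whose values on all arrays lay within the span of the deleted Ifitm genes, so that no change can be read from it. Hsbp1, whose product binds heat shock factor 1, changed by 0.73 (adjusted p = 0.046). Of 28 further DNAJ genes, 1 was called lower and 3 higher, with a median of 0.10. The gene called lower was Dnajb12, whose product sits in the membrane of the endoplasmic reticulum (-0.50, adjusted p = 0.0439). Those called higher were Dnajc10, a reductase of the endoplasmic reticulum (0.77, adjusted p = 0.0209), and Dnajc15 and Dnajc19, which belong to mitochondrial protein import (0.64 and 0.54, adjusted p = 0.0441 and 0.0373).

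Genes of prefoldin, the remaining TRiC subunits and the cofactors of TRiC and of tubulin folding, 16 in all, had a median of 0.08 and 1 call. It was for the tubulin cofactor gene Tbca, called higher (0.51, adjusted p = 0.0371). None of 11 mitochondrial quality control genes was called by limma, and 3 of them had an unadjusted p under 0.05 in either direction, as did 25.8% of all genes. The 14 chaperone genes of the endoplasmic reticulum had a median of -0.29. Of these, Hspa5, which encodes the HSP70 of that compartment, was at 11.43 and 11.44 in IfitmF-/- cells and at 12.34 and 12.40 in WT cells (-0.93, adjusted p = 0.0153). Calr, which encodes calreticulin, changed by -0.53 (adjusted p = 0.0376), and 12 were not called.

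A further list of 15 measured genes took in targets of the heat shock response, small heat shock protein genes, metallothioneins and the cold-inducible Rbm3 and Cirbp. Of these, 2 were called lower and 1 higher, and the median was -0.15, with several members as dim as the deleted Ifitm genes. Zfand2a, a heat- and arsenite-inducible gene whose product binds the proteasome, was at 9.95 and 10.06 in IfitmF-/- cells and at 12.22 and 12.23 in WT cells. That is a change of -2.22 (SE 0.08, adjusted p = 0.00903), larger than that of any chaperone member. Sqstm1, which encodes the autophagy receptor p62, changed by -1.10 (adjusted p = 0.0141). Hspb11, called higher (adjusted p = 0.0391), is named as a small heat shock protein but is known as a subunit of intraflagellar transport. Its WT values of 5.96 and 6.01 lay within the span of the deleted Ifitm genes, so its change of 0.73 may be too small.

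**Figure D4:**
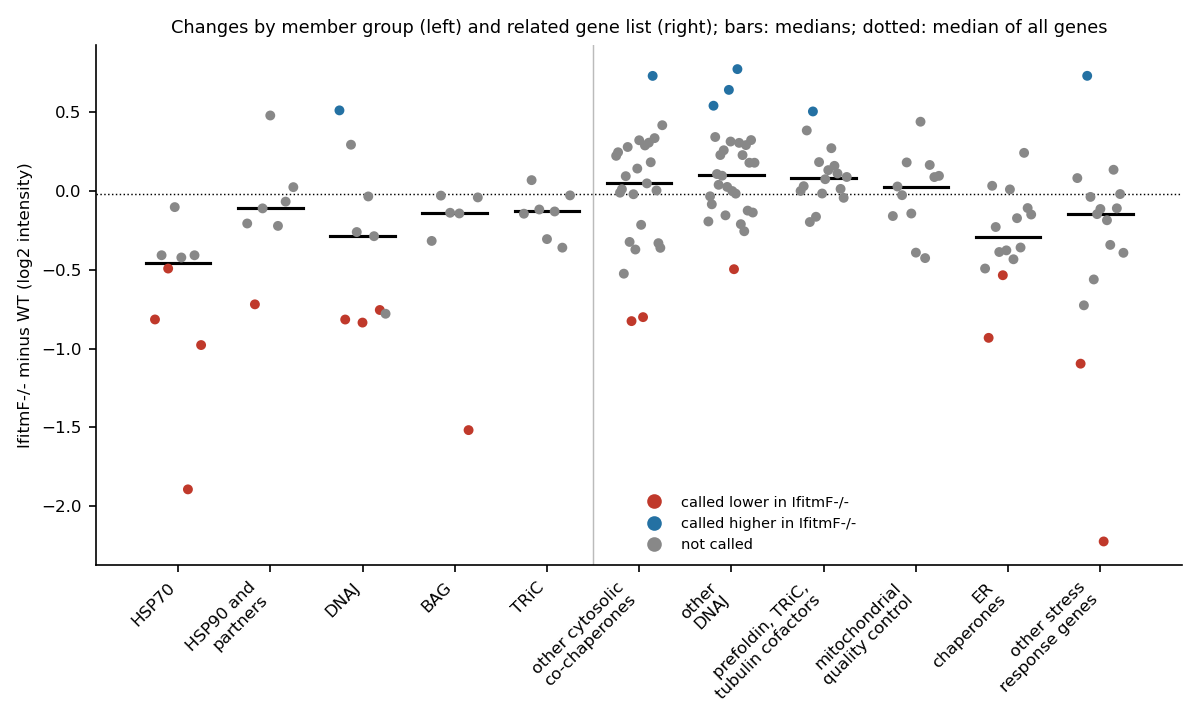
Changes as IfitmF-/- minus WT in log2 intensity (vertical axis) of the genes of the 5 chaperone families (left of the grey line) and of 6 related gene lists (right). Each point is a gene, red if called lower, blue if called higher and grey if not called, black bars are medians, and the dotted line is the median of all genes. The medians of HSP70, DNAJ and the chaperones of the endoplasmic reticulum lie lowest.

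Several other measures moved with the same arrays. A list of 33 immediate early and related genes, most of which T cells switch on soon after stimulation or stress, was also lower. It had a mean level of 9.05 and 9.07 on the IfitmF-/- arrays and 10.26 and 10.11 on the WT arrays, and a median change of -0.71. Of these genes 18 were called lower, as were 3.61% of all genes, and 15 were not called, among them Fos, Jun and Egr1. Myc was higher without being called (0.62). The part of these genes in the chaperone result was not tested. Arrays of a genotype correlated at 0.991 for IfitmF-/- and 0.993 for WT, and arrays of different genotypes at 0.976 to 0.979. Ifitm3, the check of the deletion, was at 4.61 and 4.36 in IfitmF-/- cells and at 9.26 and 8.91 in WT cells. Xist was at 4.86 and 4.43 on the IfitmF-/- arrays and at 11.32 and 11.25 on the WT arrays, and the 3 Y-linked genes measured were called higher in IfitmF-/- cells, so the sex of the mice and the genotype cannot be told apart in any value given here.

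Cd3e and Cd4, which define the labelled cell type, had levels of 11.44 or more on every array. Of 8 T cell markers measured, 2 were called higher (Cd3d and Cd3g, 0.59 each) and 2 lower (Cd28, -0.74, and Ccr7, -0.87). Among all genes 4.96% were called higher and 3.61% lower. The part of these markers in the chaperone result was not tested. The summed intensity of 13 B cell markers was 4558 and 6959 on the IfitmF-/- arrays and 17241 and 5937 on the WT arrays, so that WT replicate 1 stood apart, and none was called in limma or had an unadjusted p under 0.05. With WT replicate 1 left out, the members had a median change of -0.22 and the HSP70 genes of -0.49, while the change of Hspa1a went from -1.89 to -1.55. That fit leaves 1 WT array, and the part of B cells in the chaperone result was not tested. The summed intensity of 5 plasma cell markers was 1974 and 1840 on the IfitmF-/- arrays and 3844 and 2606 on the WT arrays. All 5 were lower on both IfitmF-/- arrays with an unadjusted p under 0.05, none of them was called in limma, and their part in the chaperone result was not tested. Platelet and erythroid sums were higher on both IfitmF-/- arrays than on both WT arrays, and myeloid and neutrophil sums overlapped between the genotypes. The summed intensity of 9 NK cell markers was 2603 and 2411 on the IfitmF-/- arrays and 3280 and 2649 on the WT arrays. These markers did not move together, with 6 changes above 0, 3 below 0 and a median of 0.18. Nkg7 and Eomes were called lower (-0.89 and -0.79) and none was called higher. An unadjusted limma p under 0.05 was reached by 4 with a higher level and by 2 with a lower level. Of the neutrophil markers, Retnlg was called higher (1.83). The part of these cells in the chaperone result was not tested.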

How the data were processed

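The authors made the deposited intensities with RMA and left them on a linear scale. RMA subtracts background, gives all 4 arrays the same distribution by quantile normalization and summarises each probe set, so changes are relative to the whole array. RMA and affy come from the submitters' processing notes, with versions not given in the sources used here. Intensities were turned into log2 values and fitted in R 4.3.3 by limma 3.58.1 (lmFit, then eBayes, without covariates), and p values of the 34760 probe sets were adjusted together by Benjamini-Hochberg. By the platform annotation, 21640 probe sets named a single gene, 1321 several and 11799 none, and 21553 of those with 1 gene matched RefSeq by gene ID. The number of arrays limits the precision. The members and gene lists were chosen with earlier results of these data known. Values in every array are given for called members, for genes named for their role, and for the member of smallest p in each family, and for Chordc1, Dnajb6 and Hspe1, chosen after their values were seen. Of each related list, the called genes were named. Alternatives were trend and robust moderation, a second quantile normalization, centring on array medians, removal of dim probe sets, 1-gene probe sets, the mean over a gene's probe sets, the methods' t-test, their fold and range criteria, the replicate number as a block and leaving out each array. The fit was tested on simulated data. Their noise was independent in every value, so the test cannot show how effects that arrays share, such as sex, bear on the calls.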

Additional observations from a re-analysis of the deposited data

How the results depend on the processing

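Only 2 arrays per genotype and the 2 residual degrees of freedom limit every call. The count of members called lower (10) fell to 0 with the replicate block, with any 1 array left out and with the methods' t-test after Benjamini-Hochberg, although 15, 13 to 16 and 18 of the 41 measured members had an unadjusted p under 0.05 and a lower level in these settings. It was 18 with the methods' t-test unadjusted and 1 with the methods' fold and range. The count called higher (1) was 0 in all of these but the unadjusted t-test, and 2 with 1-gene probe sets or the mean over a gene's probe sets, through Chordc1. Hspa4, Hspa4l and Hspa9 joined the members called lower in those same settings and without dim probe sets. Deviations of same-numbered arrays had a weak negative correlation (r = -0.12 over all probe sets and -0.29 over genes). A crossed replicate block, added after seeing the data, left 1 member lower (Bag3) and 0 higher, and 249 and 265 genes.

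Of all genes, 719 were called lower and 989 higher. These counts became 1096 and 1518 without dim probe sets, 1193 and 1597 with 1-gene probe sets, 1192 and 1598 with the mean over probe sets, 2060 and 2280 by the unadjusted t-test, 1 and 1 after Benjamini-Hochberg, 170 and 86 with the fold and range, and 0 and 0 with the replicate block or any 1 array left out, with 1340 to 2265 lower and 1874 to 2563 higher at an unadjusted p under 0.05 in the last.

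The median change of the members was -0.23 after renewed quantile normalization, -0.18 after median centring, -0.26 without dim probe sets or with the mean over probe sets, and -0.24 to -0.21 with an array left out. That of HSP70 was -0.50, -0.41 and, with the mean over probe sets, -0.43, and -0.49 to -0.44 with an array left out. Median centring gave -0.0669 for HSP90, -0.0969 for BAG and -0.0865 for TRiC. With an array left out, the ranges were -0.188 to -0.0872 for HSP90, -0.37 to -0.24 for DNAJ and -0.18 to -0.11 for BAG. No change of the 18 members given in every array turned its sign in any setting, and the median change of all genes was -0.01 and 0.02 under the scalings, compared with -0.02.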

Other observations

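Values of probe sets annotated to a chaperone gene together with other genes belong to no single gene. The 3 probe sets annotated to Gm4247 and Dnajb6 changed by -0.98, -1.14 and -0.93, and all were called (adjusted p = 0.018, 0.0141 and 0.0161 in limma). They were at 10.64 or more on the IfitmF-/- arrays and at 11.57 or more on the WT arrays, while the probe set of Dnajb6 alone was not called.

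The probe sets annotated to Hspa8 with the small nucleolar RNA genes Snord14c and Snord14d, which lie in its introns, went the other way from Hspa8. The first was at 11.70 and 11.87 in IfitmF-/- cells and at 10.88 and 10.76 in WT cells, a change of 0.96 (adjusted p = 0.0209 in limma). The second was at 10.20 and 10.02 in IfitmF-/- cells and at 9.49 and 9.58 in WT cells, a change of 0.58 (adjusted p = 0.0471 in limma). Both differ from the 3 probe sets of Hspa8 alone, all of which had changes below 0. The probe set shared by Mir207 and Dnaja1 changed by -0.27 and was not called (adjusted p = 0.315 in limma).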
